A study of Homo sapiens with 41 samples.

Results

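The 42 genes described here are markers of a dividing cell, chosen by name from the gene counts of a layered lung culture. Of these, 16 act in S phase or in the steps into it and are called S phase genes. They are the MCM helicase genes, PCNA, RRM1, RRM2, TYMS, E2F1, CCNE1, CCNE2, CDC6, CDT1 and GINS2. The other 26 act in mitosis. All 42 were found among the 57773 genes of the table, in 41 libraries of total RNA in 14 groups. The particle groups met gold nanoparticles for 24 h, as spheres, rods or stars, with the number 1000 or 500 (no unit stated) in the title, and the controls were untreated. Apical libraries come from A549, a line of lung adenocarcinoma, grown with differentiated THP1, a monocytic leukaemia line, and exposed to air on top. Basolateral libraries come from the submerged endothelial line, which the labels call EA.hy296. Each group had 3 replicates except basolateral spheres 500, which had replicates 1 and 3. All 3 are established lines, and the THP1 cells, once differentiated, are known to divide little, which limits them as a model of proliferating tissue.

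Cells commit to division when cyclin D and cyclin E kinases inactivate the retinoblastoma protein and free the E2F transcription factors, which switch on the genes for DNA replication. The genes of mitosis peak later and are held down in resting cells by the DREAM complex, which binds a CHR element, often near a CCAAT box bound by NF-Y. Because the transcripts follow the cycle, their level in a bulk sample tracks the share of cells in each phase. In such samples a lower share of dividing cells and less RNA per cell cannot be told apart.

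The promoters below show the E2F and CHR motifs, which differ in share between the S phase and the mitosis genes, and the CCAAT box. They are the 2 of each class with the most matches, where E2F1 tied with MCM3 and MCM7, and CCNB2 with CENPF, ECT2 and NUSAP1, and ties went by symbol. Each spans 250 bases before to 50 after the start site (RefSeq, GRCh38.p14), 5′ to 3′ on the strand of the gene, with motif matches in capitals: E2F (TTTCCCGC, TTTGGCGC, TTTCGCGC or TTTGCCGC), CHR (TTTGAA or TTCGAA) and CCAAT, on either strand, with overlapping matches joined. MCM6, a helicase subunit, lies at chr2:135876394-135876693 on the minus strand. E2F1, the activating E2F factor, lies at chr20:33686336-33686635 on the minus strand. TOP2A, the topoisomerase that untangles sister chromatids, lies at chr17:40417847-40418146 on the minus strand. CCNB2, a mitotic cyclin, lies at chr15:59104896-59105195 on the plus strand.
MCM6: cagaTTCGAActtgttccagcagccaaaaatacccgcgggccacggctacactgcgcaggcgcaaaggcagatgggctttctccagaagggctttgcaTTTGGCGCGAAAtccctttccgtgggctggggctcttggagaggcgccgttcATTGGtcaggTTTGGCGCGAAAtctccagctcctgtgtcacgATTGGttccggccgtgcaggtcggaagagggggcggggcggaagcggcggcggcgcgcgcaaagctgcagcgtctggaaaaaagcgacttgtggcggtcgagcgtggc
E2F1: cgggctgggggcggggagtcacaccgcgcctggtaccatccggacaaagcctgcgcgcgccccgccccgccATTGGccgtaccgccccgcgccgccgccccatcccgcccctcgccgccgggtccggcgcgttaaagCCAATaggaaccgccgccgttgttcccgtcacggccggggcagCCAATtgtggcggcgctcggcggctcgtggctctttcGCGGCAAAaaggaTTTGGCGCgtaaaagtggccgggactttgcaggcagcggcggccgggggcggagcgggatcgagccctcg
TOP2A: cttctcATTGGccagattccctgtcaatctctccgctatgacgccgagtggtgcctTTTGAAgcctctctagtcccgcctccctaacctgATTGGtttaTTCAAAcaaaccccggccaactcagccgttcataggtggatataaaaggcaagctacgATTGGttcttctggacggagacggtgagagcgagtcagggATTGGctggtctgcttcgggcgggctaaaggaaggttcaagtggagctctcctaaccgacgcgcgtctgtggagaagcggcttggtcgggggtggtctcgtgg
CCNB2: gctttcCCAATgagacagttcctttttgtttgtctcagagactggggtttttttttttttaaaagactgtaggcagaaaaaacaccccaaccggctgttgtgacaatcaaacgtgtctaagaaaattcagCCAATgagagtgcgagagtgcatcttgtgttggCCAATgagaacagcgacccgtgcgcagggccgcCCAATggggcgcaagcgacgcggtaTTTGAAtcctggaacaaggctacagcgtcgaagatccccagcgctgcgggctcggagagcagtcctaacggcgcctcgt

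Of the 42 genes 34 had a promoter in the RefSeq table, 13 of S phase and 21 of mitosis. MCM4, MCM5, CCNE2, AURKA, TPX2, BIRC5, TTK and UBE2C had none. An E2F match stood in 10 of 13 S phase promoters (76.9%) and 2 of 21 mitosis promoters (9.52%), against 3.33% of all 27305 promoters. A CHR match stood in 2 of 13 S phase promoters (15.4%) and 15 of 21 mitosis promoters (71.4%), against 16.6% of all. A CCAAT match stood in 69.2% of the S phase and 81.0% of the mitosis promoters, against 35.7%, and both CHR and CCAAT in 2 of 13 and 12 of 21 (57.1%), against 6.58%. A match is a description of the letters and shows no binding.

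The libraries held 5243388 to 11660653 counts apically (median 8465710) and 2751299 to 10538069 basolaterally (median 7910243), so 3 counts came to between 0.257 and 1.09 CPM, the counts of a gene in every 1000000 counts of its library. The lowest count of any member in any library was 10, for GINS2, and the highest 9384, so every member was well above that floor. The members took 0.449 to 0.670% of the apical and 0.291 to 0.490% of the basolateral counts. Markers of the labelled lines were checked: summed epithelial markers were 13940 to 21260 CPM apically and 388 to 4792 CPM basolaterally, and summed endothelial markers 49.0 to 120.5 CPM apically and 2163 to 3452 CPM basolaterally. The basolateral libraries thus also held epithelial transcripts, at levels that differed by library. Of the members 21 are overlapped by another gene, 9 of them by a protein-coding gene on the opposite strand, and whether the counting used strand is not given in the sources used here, so reads of such pairs may be shared. By the level of KIT, a receptor gene of mast cells, the apical libraries fall into 3 sets of 7, at 760.0 to 973, 444 to 513 and 103 to 138 CPM, which were formed from that level and are in no label. Replicate 1 of every group lay in the first set. Replicates 2 and 3 fell 1 each into set 2 and set 3 in spheres 1000, rods 1000 and control, and the other way round in both stars groups, but both of spheres 500 fell into set 2 and both of rods 500 into set 3. Whether a library of spheres 500 and one of rods 500 carry each other's label was not tested, and all apical values of these groups are given as labelled. Among 16 near-copies of members, 15 had no reads, and PTTG2 had 1.

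Per kilobase of exon, which allows genes to be compared, PCNA, the sliding clamp of DNA polymerase, was the most abundant member in apical libraries (median 158.0 CPM per kb), followed by TOP2A (124.0). PCNA was likewise the most abundant in basolateral libraries (152.0), followed by TPX2, an activator of the spindle kinase AURKA (89.9). Over the 21 apical libraries the highest level of a member was 1.40 to 3.43 times the lowest, and over the 20 basolateral libraries 1.35 to 3.61 times. ECT2, the exchange factor that starts the cleavage furrow, varied least apically, and PCNA least basolaterally. GINS2, a subunit of the replicative helicase and one of the least abundant members, varied most in both compartments.

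The first question was whether 24 h with the particles moved the cycle genes away from the control of the same compartment. None of the 42 genes passed in any of the 12 comparisons with control. In edgeR's quasi-likelihood test (Benjamini-Hochberg adjusted p under 0.05) 0.0% of all genes tested passed in each of them, and DESeq2 and limma-voom called 0 of the 42 as well. At an unadjusted p under 0.05 stood 5 of 252 tests of members apically and 4 of 252 basolaterally, against, of all genes, 1.81% in apical spheres 1000, 3.24% in spheres 500, 1.51% in rods 1000, 1.71% in rods 500, 1.74% in stars 1000 and 1.11% in stars 500, and 1.49, 0.952, 2.98, 1.07, 1.6 and 1.27% in the basolateral groups in the same order. The smallest adjusted p of a member was 0.998. The 6 comparisons of a compartment share its 3 control libraries, so they are not independent of each other.

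**Figure D1:**
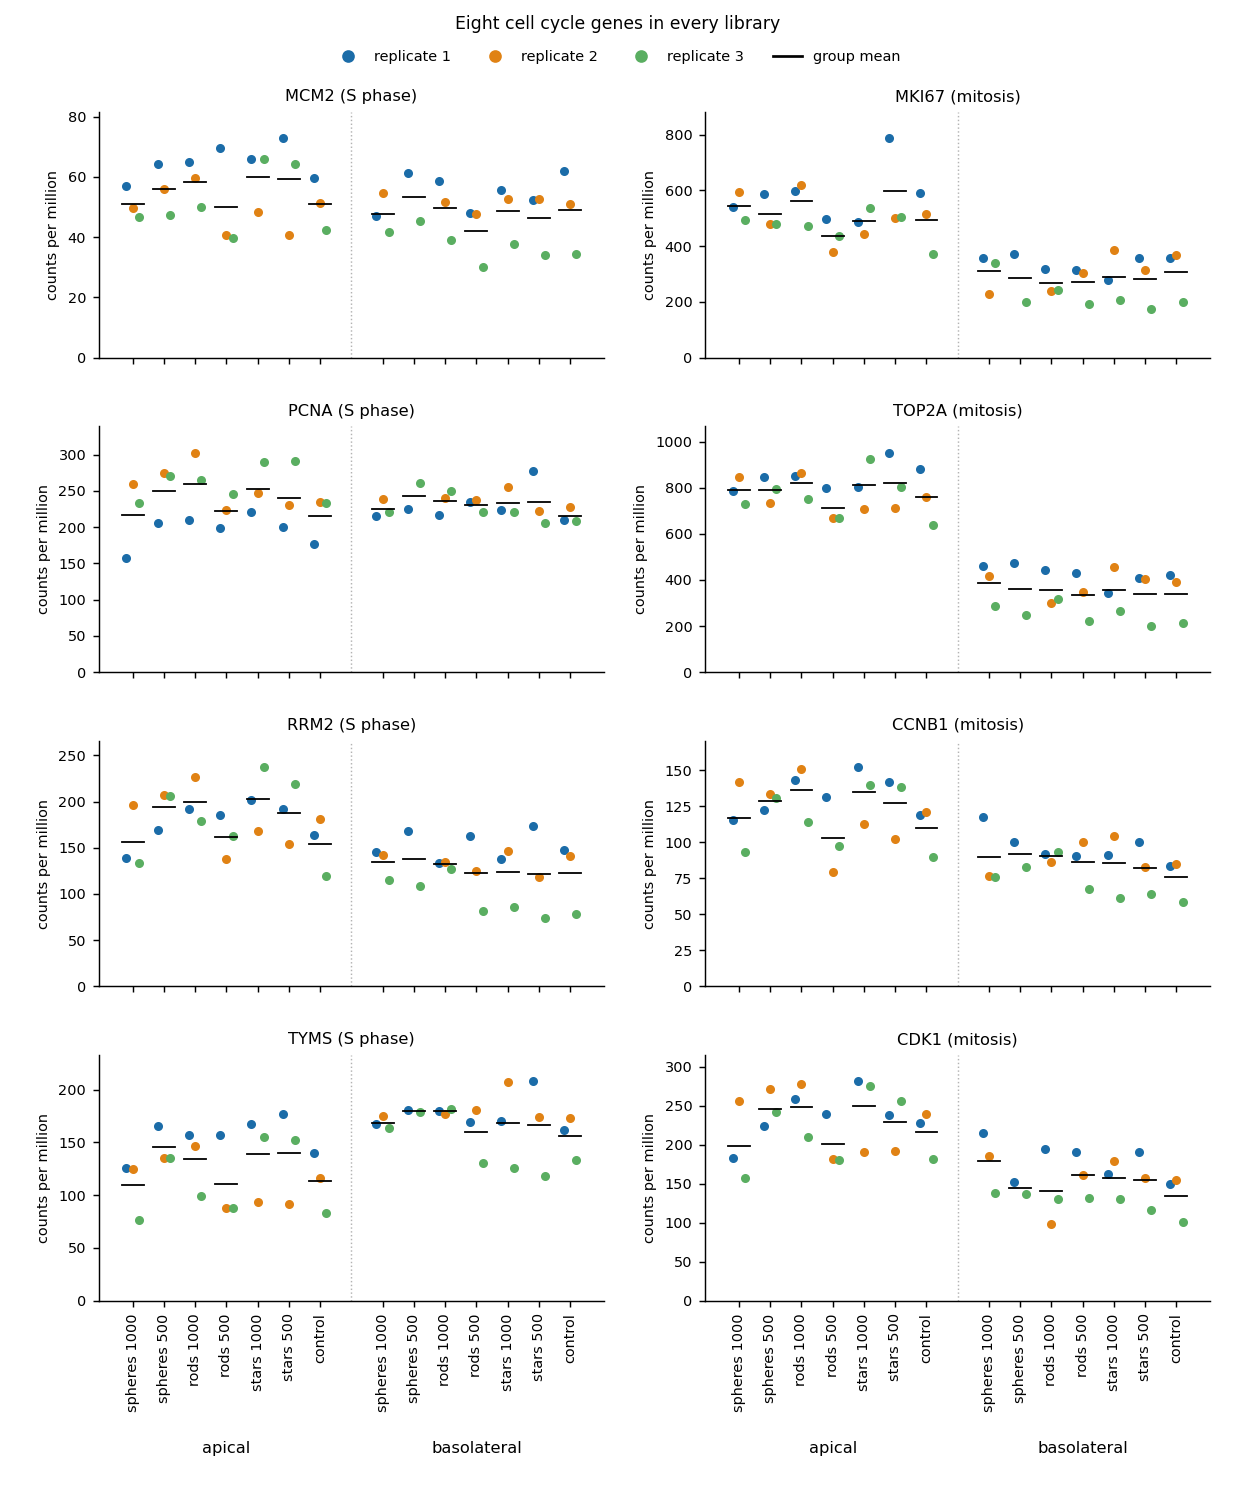
CPM (linear, from 0) of 4 S phase and 4 mitosis genes in each of the 41 libraries, one column per group with the control at the right of each compartment; points are libraries coloured by replicate and lines are group means. Apical TOP2A lies between 639 and 953 CPM with particle and control libraries mixed, and all basolateral libraries lie below it, between 200.4 and 474 CPM.

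MKI67, the Ki-67 protein that coats mitotic chromosomes and marks proliferation, measured 541, 593 and 494 CPM in apical spheres 1000, 597, 620.1 and 472 CPM in apical rods 1000, 486, 442 and 538 CPM in apical stars 1000, and 591, 514 and 373 CPM in apical control. The ranges overlapped, and the highest library was replicate 1 of stars 500 (787 CPM). At the number 500 it measured 587, 481 and 480 CPM in spheres, 496, 378 and 435 CPM in rods and 787, 500.3 and 504 CPM in stars. Over the 6 apical groups its log2 fold change over control ran from -0.15 ± 0.17 (rods 500) to 0.29 ± 0.23 (stars 500). No unadjusted p was under 0.05, and ± here and below gives the standard error from the fit. TOP2A measured 851, 866 and 752.5 CPM in apical rods 1000 and 883, 760.2 and 639 CPM in apical control (0.11 ± 0.12), and over the 6 apical groups its log2 fold change ran from -0.07 to 0.12.

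Basolaterally MKI67 measured 358, 229 and 341 CPM in spheres 1000, 319.6, 238 and 244.5 CPM in rods 1000, and 356, 369.7 and 199 CPM in control. Its log2 fold changes over control ran from -0.22 to 0.01 over the 6 groups, and the control libraries spanned nearly the whole range. TOP2A measured 462.5, 415 and 286 CPM in basolateral spheres 1000 and 422, 389 and 212 CPM in control (0.18 ± 0.27). PCNA measured 215, 238 and 220.3 CPM in basolateral spheres 1000, 217, 241 and 250.3 CPM in rods 1000, and 209.5, 227.5 and 208 CPM in control, with log2 fold changes of 0.05 to 0.17 over the 6 groups. CDK1 measured 214.5, 186 and 137.5 CPM in basolateral spheres 1000 and 149, 155 and 100.2 CPM in control (0.40 ± 0.21, unadjusted p = 0.0893, edgeR), and TYMS 179, 177 and 182 CPM in rods 1000 and 162, 173 and 133 CPM in control (0.18 ± 0.11).

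CCNB1, the cyclin that partners CDK1 at entry to mitosis, measured 143, 151 and 114 CPM in apical rods 1000, 152, 113 and 140 CPM in apical stars 1000, and 119, 121 and 89.8 CPM in apical control. In each of these groups 1 library lay within the control range. Its log2 fold change was 0.29 ± 0.15 in stars 1000 (unadjusted p = 0.0811, edgeR). CDK1, the kinase that drives mitosis, measured 258, 278 and 209.8 CPM in rods 1000, 281, 190.4 and 276 CPM in stars 1000, and 228, 239 and 181 CPM in apical control, with log2 fold changes of -0.10 to 0.20 over the 6 apical groups.

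RRM2, the regulated subunit of ribonucleotide reductase, measured 192, 226 and 179 CPM in apical rods 1000, 201.6, 168 and 237 CPM in apical stars 1000, and 164, 181 and 119 CPM in apical control. In rods 1000 its log2 fold change was 0.36 ± 0.16 (edgeR, 95% interval -0.00 to 0.73). TYMS, thymidylate synthase, measured 166, 135 and 136 CPM in apical spheres 500, and 140.2, 117 and 83.3 CPM in control, a log2 fold change of 0.34 ± 0.17 (95% interval -0.06 to 0.74). MCM2, a helicase subunit, measured 64.4, 55.8 and 47.3 CPM in spheres 500, against 59.7, 51.2 and 42.3 CPM in control, and PCNA 205, 274 and 270.3 CPM in spheres 500, against 177, 234 and 233 CPM in control. All 4 genes overlapped between these groups and control. Replicate 1 of PCNA was the lowest library in each of the 7 apical groups, whereas replicate 1 of TYMS was the highest in each.

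The mitosis genes as a class lay slightly above control in most apical groups: 23 of 26 in spheres 1000 (median log2 fold change 0.08), 22 in spheres 500 (0.14), 26 in rods 1000 (0.21), 13 in rods 500 (0.01), 24 in stars 1000 (0.21) and 25 in stars 500 (0.21), against 49.3 to 50.9% of all genes tested. The S phase genes gave 9 of 16 (0.02), 13 (0.18), 13 (0.18), 7 (-0.01), 14 (0.23) and 15 (0.16) in the same order. The members share the same libraries, so these counts are not 26 or 16 separate observations. Basolaterally the mitosis medians were 0.20 in spheres 1000 (25 of 26), 0.05 in spheres 500, 0.05 in rods 1000, 0.09 in rods 500, 0.06 in stars 1000 and 0.03 in stars 500, and the S phase medians between 0.00 and 0.10. Of all 42 members 39, 28, 31, 27, 34 and 29 were higher in the same order, against 50.4 to 55.5% of all genes tested.

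These class medians moved with single libraries. Leaving out 1 library, the apical mitosis median ran from -0.01 (without control replicate 3) to 0.18 (without its own replicate 3) in spheres 1000, from 0.05 (without control replicate 3) to 0.18 (without control replicate 1) in spheres 500, and from 0.10 (without control replicate 3) to 0.30 (without its own replicate 3) in rods 1000. It ran from -0.07 (without its own replicate 1) to 0.08 (without its own replicate 2) in rods 500, from 0.12 (without its own replicate 3) to 0.33 (without its own replicate 2) in stars 1000, and from 0.12 (without its own replicate 1) to 0.34 (without its own replicate 2) in stars 500. The apical S phase medians ran from -0.06 to 0.10 in spheres 1000, 0.10 to 0.22 in spheres 500, 0.12 to 0.26 in rods 1000, -0.13 to 0.07 in rods 500, 0.11 to 0.33 in stars 1000 and 0.08 to 0.31 in stars 500. Basolaterally the mitosis median of spheres 1000 ran from 0.04 (without its own replicate 1) to 0.31 (without control replicate 2), and in the other 5 groups it fell below 0 without control replicate 3. The basolateral S phase medians crossed 0 in every group but rods 1000 (0.04 to 0.17).

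**Figure D2:**
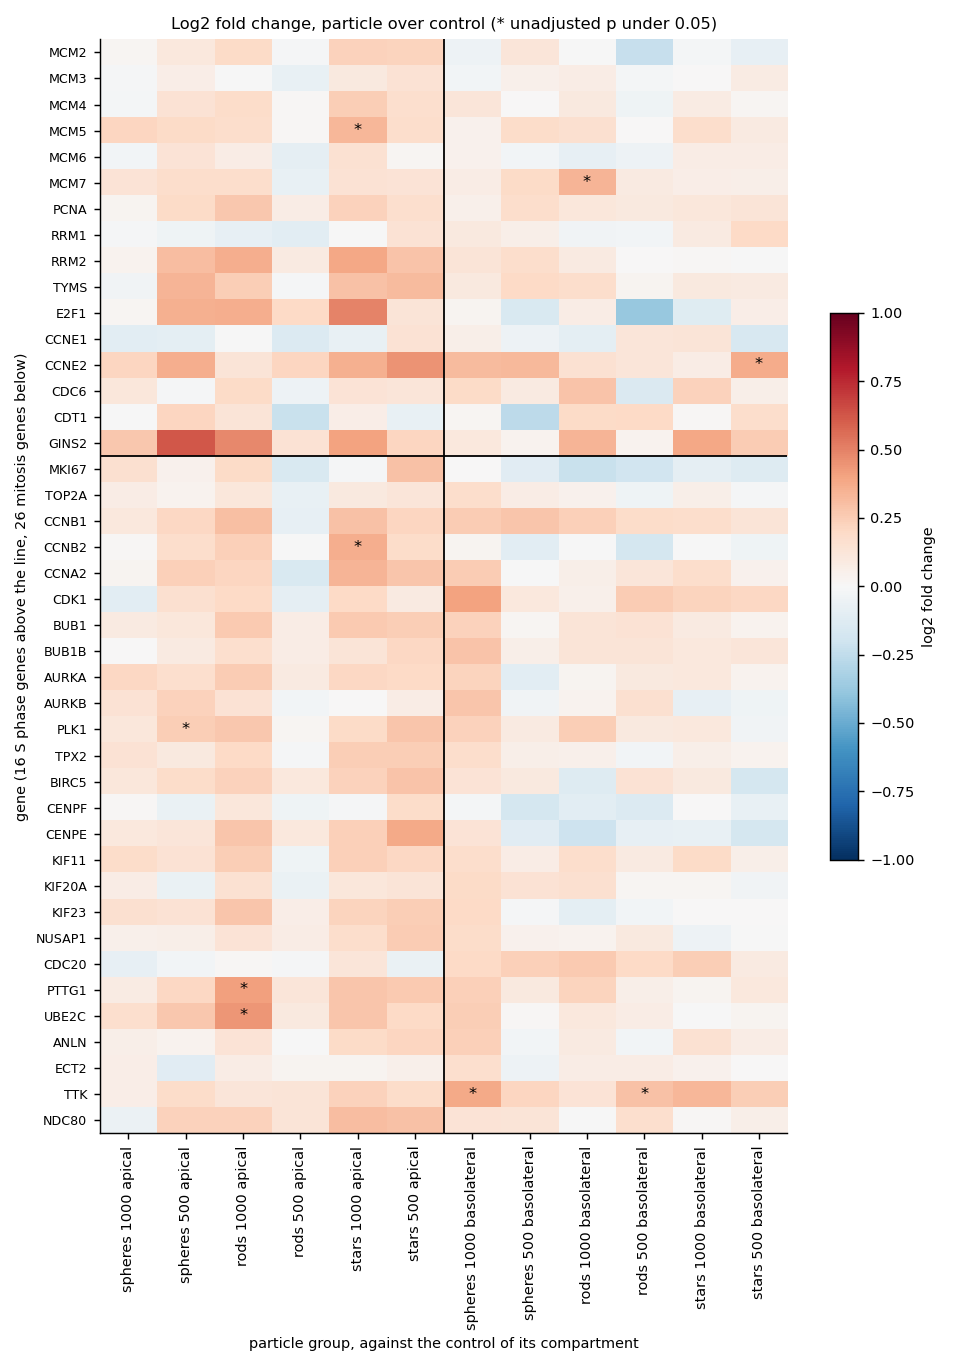
Log2 fold change of each particle group over the control of its compartment for the 42 genes (rows; S phase above the line, mitosis below), red higher and blue lower, with the 6 apical comparisons left of the 6 basolateral; asterisks mark an unadjusted p under 0.05. Values run from -0.38 to 0.62 on a scale that ends at -1 and 1, and no cell has an adjusted p under 0.05.

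The 9 single tests under an unadjusted p of 0.05 were all higher in the particle group. In apical rods 1000, PTTG1, securin, which holds sister chromatids together until anaphase, measured 99.7, 102 and 85.5 CPM, against 76.5, 81.8 and 56.8 CPM in control (0.41 ± 0.14, unadjusted p = 0.02, edgeR), and its 3 libraries lay above all controls. UBE2C, a ubiquitin-conjugating enzyme of mitotic exit, gave 0.44 ± 0.19 there. In apical stars 1000 they were the helicase gene MCM5 (0.33 ± 0.14) and CCNB2 (0.37 ± 0.15, libraries overlapping), and in apical spheres 500 PLK1, a kinase of mitotic entry (0.24 ± 0.10).

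In basolateral rods 1000, MCM7, a helicase subunit, measured 130.2, 129 and 111 CPM, against 97.4, 98.95 and 90.5 CPM in control (0.34 ± 0.11, unadjusted p = 0.00936, edgeR), without overlap; AP4M1 lies on its opposite strand and 3 miRNA genes lie inside it. TTK, a kinase of the spindle checkpoint, gave 0.38 ± 0.16 in basolateral spheres 1000, where 1 library overlapped control, and 0.30 ± 0.12 in rods 500. CCNE2, which activates CDK2 at the start of S phase, gave 0.37 ± 0.15 in basolateral stars 500.

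All libraries of the apical particle group lay above all controls for 0 members in spheres 1000 (2.83% of all genes), 6 in spheres 500 (6.37%), 4 in rods 1000 (3.47%), 0 in rods 500 (2.82%), 3 in stars 1000 (3.51%) and 2 in stars 500 (2.78%). Those in spheres 500 were MCM5, MCM7, CCNE2, GINS2, CCNB1 and PLK1, and those in rods 1000 were KIF11, KIF23, PTTG1 and UBE2C. They lay below all controls for 1 member, CCNE1 in rods 500 (4.26%), and for none in the other apical groups (4.3, 3.42, 3.6, 3.37 and 3.1% of all genes in spheres 1000, spheres 500, rods 1000, stars 1000 and stars 500). Basolaterally they lay above for 0 members in spheres 1000 (2.91%), 3 in spheres 500 with its 2 libraries (6.09%), 4 in rods 1000 (5.44%), 1 in rods 500 (3.04%), 0 in stars 1000 (3.66%) and 2 in stars 500 (3.05%), and below for none (3.3, 6.8, 3.32, 2.83, 3.12 and 2.43% of all genes in the same order). The 4 in rods 1000 were MCM7, TYMS, GINS2 and CCNB1.

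The intervals of the fold changes show which sizes the fit with group as its only term could resolve for each gene by itself. Differences between library sets or replicates stayed in the error of that fit. A call is a stricter mark: in counts simulated from spheres 1000 against control, with all 42 members raised 1.5-fold, few were called. These were 10 of 42 apically and 2 of 42 basolaterally, beside 18 of 13493 and 3 of 12452 unchanged genes. The simulation also changed other genes, drew each gene independently and was run only once. The real comparisons had no gene called, and their members moved together by library. The simulated counts therefore do not give the power of the real tests. The 95% interval lay inside 2-fold in either direction in 155 of 156 tests of mitosis genes apically and 155 of 156 basolaterally, and in 88 and 91 of 96 tests of S phase genes. Inside 1.5-fold lay 109 apical and 77 basolateral tests of mitosis genes, and 58 and 56 tests of S phase genes. The widest belonged to CDT1, a licensing factor of replication origins, in apical rods 500, at 23.2, 9.19 and 7.22 CPM against 23.65, 15.5 and 7.80 CPM in control (95% interval -1.50 to 1.05). GINS2 in apical spheres 500 had the largest fold change of any member, at 12.8, 14.6 and 14.6 CPM against 12.02, 10.4 and 4.72 CPM in control (0.62 ± 0.31, 95% interval -0.08 to 1.32).

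The libraries of a group differed in these genes together. In the third of the apical KIT sets the members stood lowest: their median log2 deviation from the compartment mean was -0.30 to -0.09 for S phase genes and -0.35 to -0.12 for mitosis genes, against 0.00 to 0.32 and -0.05 to 0.28 in the other 2 sets. The third set had the lowest median of the 3 for 14 of 16 S phase and 24 of 26 mitosis genes, against 46.2% of the 14288 genes with an apical mean of at least 1 CPM. For 3 S phase and 7 mitosis genes (4.21% of all genes), among them MCM3, MCM7, TYMS, CCNB1, CCNA2, BUB1 and AURKB, all 7 of its libraries lay below the other 14. TYMS measured 76.9 to 99.7 CPM in the third set and 117 to 177 CPM in the others. PCNA, CCNE1, ANLN and ECT2 did not follow, each with its lowest median in the first set. Basolaterally, replicate 3 stood lowest, with median deviations of -0.45 to -0.07 (S phase) and -0.47 to -0.03 (mitosis), against 0.00 to 0.36 and -0.09 to 0.42 in replicates 1 and 2. Replicate 3 had the lowest median for all 42 members (51.2% of 13331 genes), and all its libraries lay below the rest for MCM2, MCM3 and MCM4 (0.848%). Summed epithelial markers were 13940 to 17820 CPM in apical set 1, 19080 to 21260 CPM in set 2 and 14360 to 17690 CPM in set 3, and basolaterally 1598 to 4792 CPM in replicate 1, 913 to 1907 CPM in replicate 2 and 388 to 2002 CPM in replicate 3. Summed mast cell markers, which include KIT, were 1161 to 1396 CPM in apical set 1. They were 643.7 to 741.5 CPM in set 2 and 156.8 to 191.8 CPM in set 3. Basolaterally they were 90.25 to 288.9 CPM in replicate 1, 22.14 to 63.2 CPM in replicate 2 and 0.9123 to 13.85 CPM in replicate 3. Summed monocyte and macrophage markers overlapped between the apical sets and were highest in basolateral replicate 1. The part of the epithelial markers in the members' levels was not tested apically. That of the other markers was not tested.

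**Figure D3:**
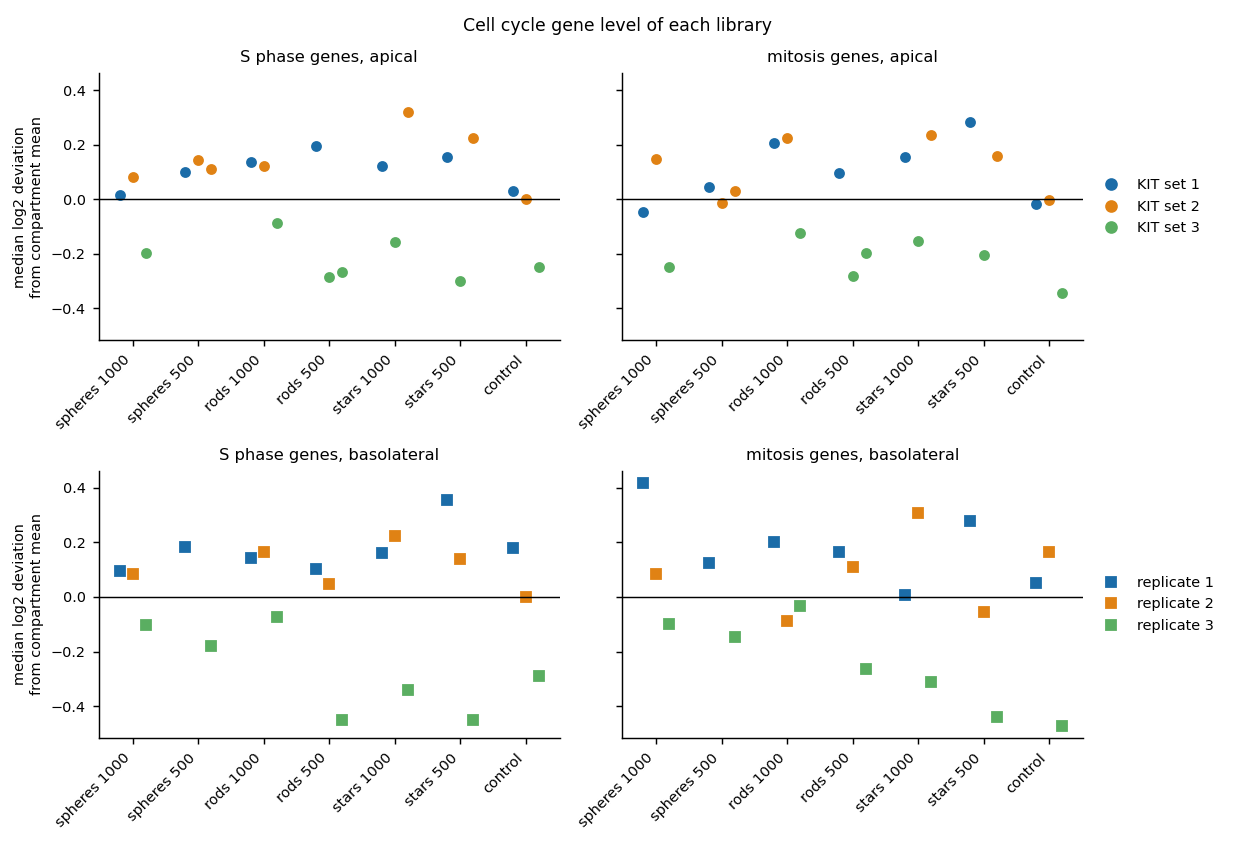
Median log2 deviation of the S phase (left) and mitosis genes (right) of each library from the mean of its compartment, by group with the control at the right; apical libraries are coloured by KIT set and basolateral libraries by replicate. Apical set 3 lies between -0.35 and -0.09 and basolateral replicate 3 between -0.47 and -0.03, all below 0.

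Apical spheres 500 had no library in the third set and rods 500 had 2, so those groups differ from control also in this composition. When that set entered the model as a block, fitted over every apical group, the mitosis median became 0.03 in spheres 500 and 0.13 in rods 500, and the S phase medians 0.07 and 0.08. In the other 4 groups they were 0.09 and 0.03 in spheres 1000, 0.21 and 0.19 in rods 1000, 0.22 and 0.24 in stars 1000, and 0.22 and 0.15 in stars 500. No member was called in that fit. With epithelial marker level as a covariate over all basolateral groups, the mitosis and S phase medians were 0.23 and 0.07 in spheres 1000, 0.08 and 0.12 in spheres 500, -0.02 and 0.01 in rods 1000, 0.11 and 0.03 in rods 500, 0.05 and 0.06 in stars 1000, and 0.10 and 0.12 in stars 500. No member was called there either.

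Numbers and shapes were compared directly within a compartment, in 6 comparisons of 1000 with 500 and 12 between shapes. No member was called in any of them (0.0% of all genes in each), with 3 tests of members at an unadjusted p under 0.05, and DESeq2 and limma-voom called 0. In apical rods, MKI67 measured 597, 620.1 and 472 CPM at 1000, against 496, 378 and 435 CPM at 500 (log2 fold change 0.34 ± 0.14, unadjusted p = 0.0405, edgeR), and KIF11, the motor that separates the spindle poles, gave 0.29 ± 0.13. The class medians of that comparison were 0.19 for both classes and became 0.10 with the set block. PTTG1 was lower in apical spheres 1000 than in rods 1000 (-0.33 ± 0.14). In spheres 500 against rods 500 the S phase median was 0.14 and became -0.01 with the set block, and the mitosis median 0.08 and -0.10. There 6 members, AURKB, CCNA2, CCNB1, CDT1, MCM7 and TYMS, were called higher in spheres 500 once rods 500 replicate 1 was left out (2.67% of all genes were then called higher), which leaves rods 500 with libraries of the third set only.

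Whether an exposure acted differently in the 2 compartments was tested as the difference of the 2 effects, in 6 comparisons. No member was called (0.0% of all genes; 0 members at an unadjusted p under 0.05, and 0 by DESeq2 and limma-voom). The median differences, apical minus basolateral, ran from -0.01 to 0.11 for S phase genes and from -0.08 to 0.17 for mitosis genes, but from 0.08 to 0.35 for mitosis genes without basolateral control replicate 3. Their intervals were wider: for 32 to 38 of the 42 members they lay inside 2-fold.

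Between the compartments many members differed, but not a larger share of them than of all genes. In the control cultures 20 of the 42 members passed, 14 higher and 6 lower in apical than in basolateral, where 54.1% of all 14198 genes passed, 26.7% higher and 27.4% lower. The members' median log2 fold change was 0.33 for mitosis genes (19 of 26 higher) and 0.15 for S phase genes (9 of 16 higher). The S phase median was -0.05 without basolateral control replicate 3, 0.29 without scaling and 0.04 with a replicate block over all groups, so its direction rests on 1 library. The mitosis median was 0.17 without basolateral control replicate 3 and 0.48 without scaling. The lines differ, and A549 and THP1 RNA are mixed apically, so line, co-culture and the air-liquid interface cannot be told apart here. The 13 epithelial markers summed to 16190 to 19080 CPM in apical and 496 to 2845 CPM in basolateral control, and their part in the differences was not tested.

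**Figure D4:**
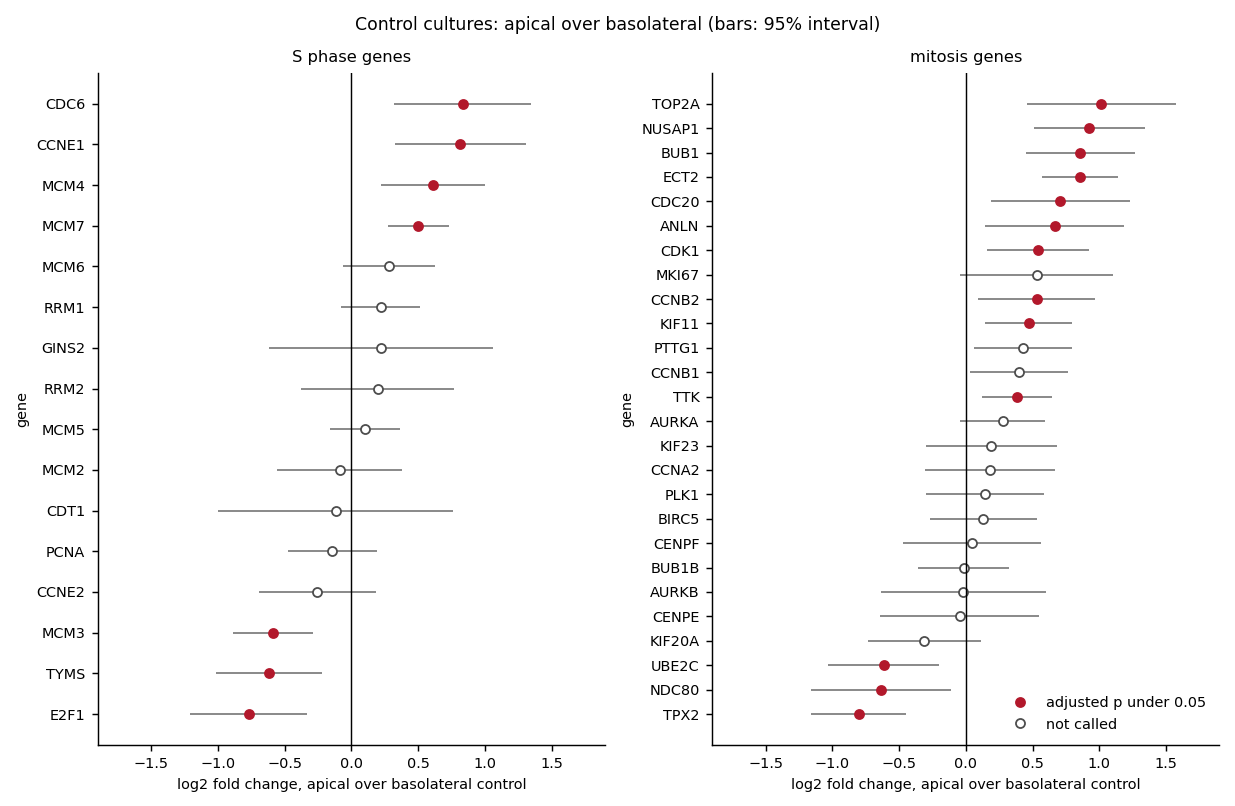
Log2 fold change, apical over basolateral control cultures, with 95% intervals for 16 S phase genes (left) and 26 mitosis genes (right), sorted by value; filled points have an adjusted p under 0.05. TOP2A stands highest at 1.02 and TPX2 lowest at -0.80.

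Of the genes of chromosome separation, TOP2A measured 883, 760.2 and 639 CPM in apical control, against 422, 389 and 212 CPM in basolateral control, a log2 fold change of 1.02 ± 0.24 (adjusted p = 0.00986, edgeR). The groups did not overlap. NUSAP1, a microtubule bundler of the spindle, measured 194.5, 164 and 160.2 CPM in apical and 87.9, 100.8 and 58.2 CPM in basolateral control (0.93 ± 0.18, adjusted p = 0.00382). BUB1, a kinase of the spindle checkpoint, measured 89.8, 88.6 and 70.5 CPM in apical and 44.7, 49.6 and 30.1 CPM in basolateral control (0.86 ± 0.18, adjusted p = 0.00502).

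ECT2, at chromosome 3, 172750682 to 172821474 on the plus strand (GRCh38, GENCODE 29), had the smallest adjusted p. It measured 279, 295 and 285 CPM in apical and 153, 161 and 117 CPM in basolateral control (0.85 ± 0.12, adjusted p = 0.00105, edgeR). ANLN, which scaffolds the cleavage furrow, rose by 0.66 ± 0.22, and KIF11, CDK1, CDC20, CCNB2 and TTK rose by 0.47, 0.54, 0.71, 0.53 and 0.38 on the same log2 scale. CDC20 activates the anaphase-promoting complex. TPX2 went the other way, at 216, 199 and 161 CPM in apical and 333, 342 and 232 CPM in basolateral control (-0.80 ± 0.15, adjusted p = 0.00364), and so did UBE2C (-0.62) and NDC80, a kinetochore subunit (-0.64). MKI67 (0.53 ± 0.24, adjusted p = 0.104), CCNB1 (0.40 ± 0.16, 0.0658) and PTTG1 (0.43 ± 0.16, 0.0508) did not pass. The other 10 mitosis genes (AURKA, AURKB, BIRC5, BUB1B, CCNA2, CENPE, CENPF, KIF20A, KIF23 and PLK1) lay between -0.31 and 0.28.

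Among the S phase genes the helicase subunits split. MCM7 measured 160, 159 and 131 CPM in apical and 97.4, 98.95 and 90.5 CPM in basolateral control (0.50 ± 0.10, adjusted p = 0.00418), and MCM4 rose by 0.61 ± 0.17. MCM3 measured 124, 116 and 94.1 CPM in apical and 176, 148 and 129.6 CPM in basolateral control (-0.59 ± 0.13, adjusted p = 0.00656). MCM2 (-0.09), MCM5 (0.10) and MCM6 (0.28) did not pass. The loading factor CDC6 rose by 0.83 ± 0.22 and CCNE1, cyclin E1, by 0.82 ± 0.21. E2F1 measured 9.73, 12.45 and 10.51 CPM in apical and 19.3, 15.8 and 15.7 CPM in basolateral control (-0.77 ± 0.19, adjusted p = 0.0107), and TYMS, which overlaps ENOSF1 on the other strand, fell by 0.62 ± 0.17 on the log2 scale, with libraries that overlap between the compartments. PCNA (-0.14), RRM1 (0.22), RRM2 (0.20), CDT1 (-0.12), GINS2 (0.22) and CCNE2 (-0.25) did not pass.

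The number of members called fell in each fit with 1 library left out. It was 10 without apical control replicate 2 and 11 without basolateral control replicate 1, and 15 to 18 without any other 1. The share of all genes called in those fits is not given here, so a fall particular to the members cannot be read from it. Without scaling the split was 17 higher and 3 lower: NDC80, TYMS and UBE2C were no longer called and AURKA, CCNB1 and PTTG1 were, while the median of all genes stood at 0.14 in place of -0.01. ECT2, NUSAP1, TOP2A, BUB1, TPX2, MCM7, MCM3 and E2F1 remained called whichever library was left out. Of the libraries' values, those of 7 S phase and 14 mitosis genes lay all above in apical control (37.3% of all genes) and those of 2 and 2 all below (27.7%), and 22 members had an unadjusted p under 0.05 (59.6%).

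The particle groups give 6 further apical and basolateral pairs, which the test between controls did not use. The 7 pairs below include the control pair. Plain CPM carries no scaling, and without it the median log2 fold change of all genes between the controls was 0.14, against -0.01. MCM2 counts as higher in all 7 pairs, although it was lower apically in the scaled test between controls. It was not the only such member, as that test had 28 of the 42 members higher apically. On plain CPM the apical mean was higher in all 7 pairs for 10 of 16 S phase and 20 of 26 mitosis genes (42.4% of the 14200 genes with a mean of at least 1 CPM) and lower in all 7 for 3 and 4 (32.5%). All 21 apical libraries lay above all 20 basolateral libraries for MCM4, CDC6, TOP2A, CCNB2, BUB1, NUSAP1, ANLN and ECT2, that is 2 S phase and 6 mitosis genes (16.6% of genes), and for no member did they all lie below (12.8%). The apical to basolateral ratio of ECT2 was 1.82 to 2.05 over the 7 pairs and that of TOP2A 2.03 to 2.43. The genes lower in all 7 pairs were MCM3, TYMS, E2F1, TPX2, KIF20A, UBE2C and NDC80, with TPX2 at 0.609 to 0.73 and MCM3 at 0.69 to 0.784.

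Other genes of the cycle differed between the control compartments in both directions, some with larger folds than any member. The lists below had 43.3 to 57.1% of their genes called, and the 5 CDK inhibitors 80.0%, against 54.1% of all genes. CCND1, cyclin D1, measured 137, 214 and 244 CPM in apical and 1112, 1319 and 1584 CPM in basolateral control (-2.90 ± 0.28, adjusted p = 0.000306, edgeR), while CCND3, cyclin D3, was higher apically (2.10 ± 0.22). CDK2 and CDK4, the kinases of cyclin E and cyclin D, fell by 1.22 ± 0.12 and 0.96 ± 0.14 on the log2 scale. Of the 7 G1 cyclins and kinases 1 rose and 3 fell. CDKN1A, the p21 inhibitor of these kinases, measured 52.1, 64.6 and 71.8 CPM in apical and 175, 189 and 233 CPM in basolateral control (-1.80 ± 0.19), and CDKN2C, which inhibits CDK4 and CDK6, went up (2.14 ± 0.30). Of the 5 CDK inhibitors tested 3 rose and 1 fell.

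E2F7, a repressing E2F factor, had the largest difference among the factors, at 17.9, 13.2 and 13.9 CPM in apical and 118, 123 and 94.0 CPM in basolateral control (-3.05 ± 0.15, adjusted p = 9.43e-06, edgeR), while the activating factor E2F2 was higher apically (2.32 ± 0.50). Of the 16 RB, E2F, DREAM and MYB factors 5 rose and 3 fell. Of 25 other replication genes 6 rose, among them ORC1, the largest subunit of the origin recognition complex (1.62 ± 0.22), and 5 fell, among them UHRF1, which recruits the maintenance DNA methyltransferase (-0.95 ± 0.11). Of 30 other spindle, checkpoint and cytokinesis genes 10 rose, among them HJURP, the chaperone of the centromeric histone (1.47 ± 0.31), and CDC25B, a phosphatase that activates CDK1 (1.29 ± 0.17), and 3 fell, among them FAM83D (-1.05 ± 0.19), which recruits a kinase to the spindle. In the comparisons with control no gene of these 5 lists was called by edgeR, DESeq2 or limma-voom, and 7 of 994 tests stood at an unadjusted p under 0.05.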

How the data were processed

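Total RNA from 41 cultures was sequenced after QIAGEN purification and SMARTer Stranded library preparation, per the labels' protocols. Gene counts were deposited by the authors as whole numbers that are not normalized; GRCh38.p13 is named per the submitters' processing notes, and which aligner, counter, annotation and strand setting the authors used was not stated there. Even values were 67.7 to 78.9% of counts of 1 to 20, and 90.6% of identifiers stood in GENCODE 29. Why even values were the more common was not tested, so the number of separate fragments behind a count is not known. Groups followed the titles and labelled treatments.

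Genes were tested on all counts in edgeR 4.0.16 (R 4.3.3), quasi-likelihood, robust, TMM scaling, filterByExpr and group as the only term, with Benjamini-Hochberg adjustment over all genes and a threshold of 0.05. Values after ± are standard errors of the log2 fold change, derived from its size and the F statistic of the test. Intervals are 95% and from the fit's degrees of freedom. Alternatives were DESeq2 1.42.0, limma-voom (limma 3.58.1), RLE and no scaling, no filter, all groups in 1 fit, replicate or library set as a block, an epithelial marker covariate, and leaving out each library. The fit was tested on data simulated from spheres 1000 against control in each compartment. Of genes outside the members changed 2-fold there, 33 of 66 were called apically and 16 of 63 basolaterally. Levels are CPM; 3 counts were taken as the floor. Intervals cover counting error and the spread between these samples, which the design text calls biological replicates. Named members follow a fixed rule: 8 anchors, up to 8 called members by p, else 2 of each class, with up to 4 genes of each other list between the compartments and members outside it chosen after their values were seen. The members and lists were chosen with earlier results of these data known.

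Replicate numbers were checked as pairs from each library's deviation from its group mean: with 3 pairs, every same-numbered correlation was above 0.1 for apical spheres 1000 (0.361, 0.172 and 0.494) and rods 1000, and basolateral stars 1000 and stars 500, against control, and for 5 of the other comparisons. Both were also above 0.1 in the 4 comparisons of basolateral spheres 500, which have 2 pairs only and were not taken as paired.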

Additional observations from a re-analysis of the deposited data

How the results depend on the processing

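In the comparisons other than between the 2 controls, 565 fits of alternatives were run and 1 called any member: 6 in apical spheres 500 against rods 500 when leaving out 1 library (0 to 6 over that comparison). Between the controls the number called was 10 to 18 when leaving out 1 library, 21 with RLE scaling, 20 with no scaling, 19 with no filter, 23 with DESeq2, 21 with limma-voom and 19 with all groups in 1 fit. With the replicate block it was 23, and 15 in the fit of all groups. Deviations from the group mean correlated most between same-numbered control libraries of the 2 compartments (0.166, 0.0396 and 0.144 for replicates 1 to 3). Summed mast cell markers fell from replicate 1 to 3 in both controls (1170 to 176.6 CPM apically and 177.0 to 3.057 CPM basolaterally). Whether same-numbered libraries come from the same culture was not tested, and the main test between controls left the number out. The block called 0 members in every other comparison, also where the numbers pair the samples. Without scaling the median log2 fold change of all genes between controls was 0.14, against -0.01. Of the 20 calls between the controls, 8 were kept in all 14 settings and 12 were lost in at least 1: NDC80 in 8 settings, CCNB2, TTK and TYMS in 6, CDC20 and CDK1 in 5, ANLN in 4, UBE2C in 3, CCNE1 and KIF11 in 2, and CDC6 and MCM4 in 1. For the 8 members with the smallest p there and 4 members of each other comparison, 2363 values kept direction and side, 1 passed in addition, and 8 changed sign. When leaving out 1 library at a time, CDC6 ran from -0.0201 to 0.337 in basolateral spheres 1000 against control, MCM2 from -0.351 to 0.0493 in basolateral spheres 1000 against 500, CCNE1 from -0.00228 to 0.667 in basolateral stars 1000 against 500, and CCNE2 from -0.427 to 0.0951 in apical rods 1000 against stars 1000. Likewise MCM5 ran from -0.245 to 0.0766 and E2F1 from -0.0313 to 0.316 in basolateral spheres 1000 against stars 1000. With the library set block MCM6 was -0.0154 and CDK1 -0.0636 in apical spheres 500 against rods 500. None of these was called in the first place, and the cause was not tested. No member fell under 10 counts in any library, above the floor of 3 counts.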
